A study of Bos taurus with 21 samples.

Results

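Of 28054 bovine transcripts counted in the endometrium of 20 heifers, 48 were close to absent in some heifers and clearly present in others, with levels that overlapped between the groups of pregnancy and day. They were chosen from their own values. Levels are in CPM, the customary scaling of a transcript's read count to the total count of its library. In 18 libraries, a member had under 1 CPM (called off) in at least 3, over 5 CPM (called on) in at least 3 and a maximum over 10 CPM. These thresholds were passed by 70 transcripts. The 22 whose heifers did not overlap between 2 of the groups in a pregnancy or day comparison were left out. No overlap was found in 6 for pregnancy at day 16, 11 for day in cyclic heifers and 12 for day in pregnant heifers, and in 0 for pregnancy at day 13. A transcript can count in more than 1 comparison. The pregnant day 16 group had 3 heifers here and the others 5 each, and smaller groups separate more easily. The share of all transcripts without overlap is not given here, so nothing is read from these counts. The choice of members by these thresholds fixed the pattern of being on or off. What the rule left free was described here: whether values fell between the states, which transcripts switched in the same heifers, and how the members behaved in libraries that the rule did not use.

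The heifers were cross-bred beef animals, mainly of Charolais and Limousin crosses, with age not given in the sources used here. In all of them the cycle was synchronised with a progesterone-releasing vaginal device (CIDR) and an injected analogue of prostaglandin F2α. Those called pregnant were inseminated and gave a conceptus of the proper stage when the uterus was flushed, and those called cyclic were not inseminated. Slaughter was on day 13 or day 16, which with pregnancy gave 4 groups of 5 heifers. Day 13 is when the conceptus starts to elongate and day 16 is the time of maternal recognition of pregnancy. The tissue was mostly intercaruncular endometrium from the uterine horn beside the corpus luteum.

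Endometrium is a mixture of luminal and glandular epithelium, stroma, blood vessels and leukocytes, held in the luteal phase under progesterone. Its level of a transcript is a sum over all cells in the piece taken, so fewer cells of a type and less RNA per cell cannot be told apart. A count per transcript also depends on how reads shared by overlapping transcripts or by similar genes were assigned. The files identify transcripts by Ensembl number only, and 0 of the 28054 identifiers matched the RefSeq table of gene names used here (assembly ARS-UCD2.0). Gene names, functions, positions, sequences and the marker check of the tissue are for that reason not analysed here.

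Total counts of the 18 libraries ran from 1256870 to 3764342, with a median of 2556730. In the shallowest, pregnant day 16 heifer 1, off meant at most 1 count and on meant at least 7 counts. In the deepest, pregnant day 13 heifer 9, the same limits were at most 3 and at least 19 counts. The limit that a count of 0 allows, 3 counts, was 2.39 CPM in the shallowest and 0.797 CPM in the deepest library, so a transcript called off may be present below it. Over the 18 libraries, the spread of the members' counts was larger than counting error by a median of 11.9 times in variance, from 4.70 to 88.3, against a median of 2.91 over 18060 transcripts with at least 15 counts. The first of these figures follows from the choice of members.

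The libraries not used by the rule were the 2 labelled pregnant day 16 heifer 12 and the 1 labelled pregnant day 16 heifer 19. The states of the members in these libraries did not follow their labels. Of the 19 members that were on or off in both library 2 of heifer 12 and the library of heifer 19, all 19 were in the same state. Of the 15 that were on or off in both libraries labelled heifer 12, 11 were in the same state and 4 were in opposite states. The 56 pairs of libraries that included at least 1 of these 3, other than library 2 with heifer 19, agreed for 31.2% to 87.5% of the members. Library 1, library 2 and heifer 19 are therefore given one by one, and library 2 and heifer 19 are not counted as 2 independent animals.

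Most members were graded rather than switched. Of the 864 values of the 48 members in 18 libraries, 28.5% were off, 38.1% were on and 33.4% lay between 1 and 5 CPM. The number of libraries between the thresholds had a median of 6 and reached 12, the most that the rule allows. It was 0 in 4 members, 1 to 5 in 17 and 6 or more in 27. Members were on in 3 to 15 libraries (median 6.5) and off in 3 to 12 (median 4.5), where the rule allows 3 to 15 for each. A maximum between 10 and 20 CPM was found in 32 of the 48. The widest gap between neighbouring libraries, in sorted values of log2(CPM + 0.5), had a median of 1.23 over the members and exceeded 2 in 6 of them.

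**Figure D1:**
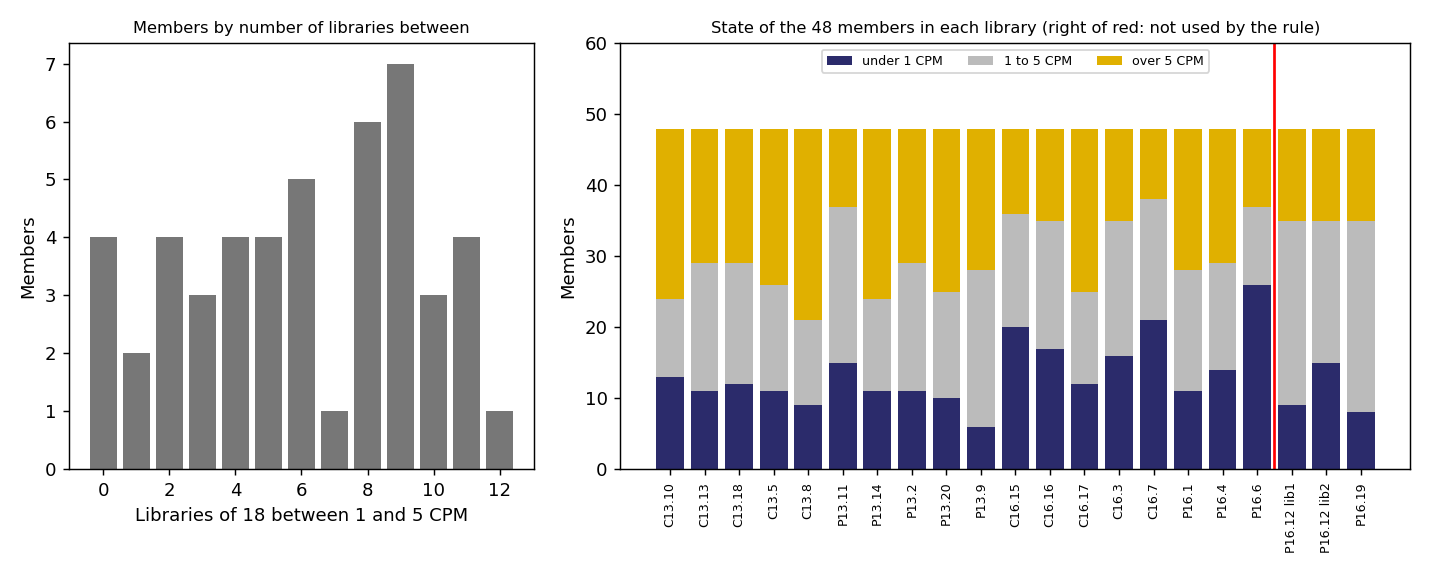
Left, the number of members (vertical axis) by the number of the 18 libraries in which they lay between 1 and 5 CPM. Right, the members under 1 CPM, between 1 and 5 CPM and over 5 CPM in each library (C cyclic, P pregnant, then day and heifer), with the libraries not used by the rule to the right of the red line. Only 4 members had no library between, and every library held members in all 3 states.

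The 4 members with an empty middle were ENSBTAT00000028731, ENSBTAT00000017749, ENSBTAT00000019800 and ENSBTAT00000034283. ENSBTAT00000028731 had the highest maximum and the widest gap of all members, 5.46 on the log2(CPM + 0.5) scale. In cyclic day 13 heifers it had 0 CPM in heifer 10 and 51.8, 69.7, 73.8 and 47.8 CPM in heifers 13, 18, 5 and 8. In pregnant day 13 heifers it had 0 CPM in heifers 11 and 9 and 118, 80.5 and 57.0 CPM in heifers 14, 2 and 20. In cyclic day 16 heifers it had 0 CPM in heifers 15, 16 and 17 and 52.8 and 51.0 CPM in heifers 3 and 7. In pregnant day 16 heifers it had 43.0 CPM in heifer 1, 58.6 CPM in heifer 4 and 0.487 CPM, a single count, in heifer 6. Each group thus held heifers at both levels, and nothing lay between 0.487 and 43.0 CPM. The transcript was off in 7 libraries, 6 of them with 0 counts, and on in 11. In the libraries the rule did not use it had 0 CPM in library 1 of heifer 12, 66.3 CPM in library 2 and 71.8 CPM in heifer 19.

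ENSBTAT00000017749 was also on in 11 and off in 7 libraries, but not the same ones. It was on in 1 cyclic day 13 heifer, heifer 10 at 19.6 CPM, and had 0, 0, 0.394 and 0 CPM in heifers 13, 18, 5 and 8. In pregnant day 13 heifers 14, 2 and 20 it had 21.7, 16.7 and 17.5 CPM, against 0.405 and 0 CPM in heifers 11 and 9. In cyclic day 16 heifers 15, 16, 3 and 7 it had 23.9, 17.8, 18.4 and 40.1 CPM, and 0.384 CPM in heifer 17. All 3 pregnant day 16 heifers used by the rule were on, at 19.1, 31.2 and 52.1 CPM in heifers 1, 4 and 6. Its gap ran from 0.405 to 16.7 CPM. In the libraries not used by the rule it had 20.2 CPM in library 1 of heifer 12 and 0 CPM in both library 2 and heifer 19, the reverse of ENSBTAT00000028731. Over the 18 libraries the 2 transcripts were both on in 7 and both off in 3, with 4 in each of the opposite combinations.

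**Figure D2:**
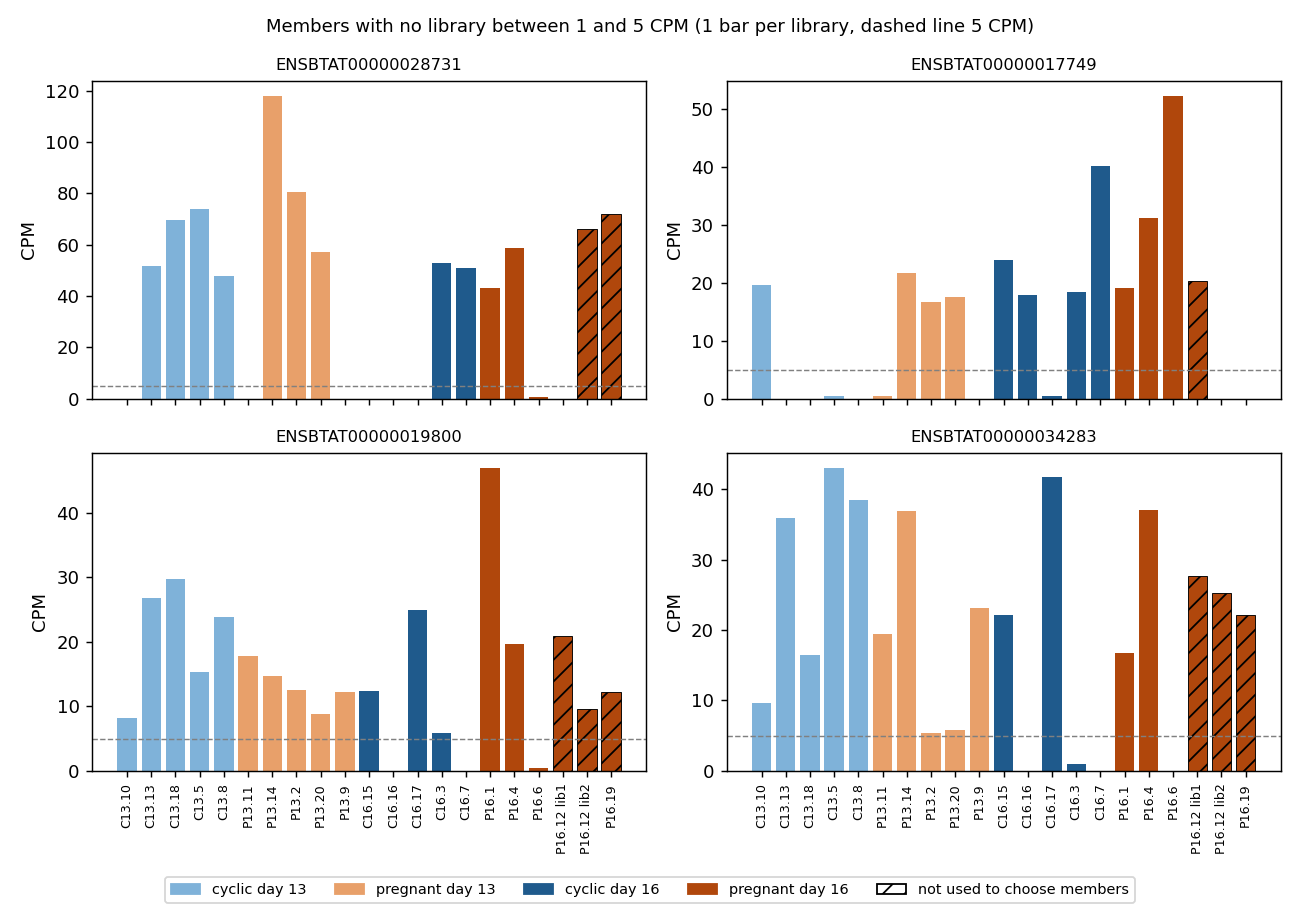
CPM (vertical axis, from 0) of the 4 members with no library between 1 and 5 CPM, 1 bar per library, coloured by group. Hatched bars are the 3 libraries not used by the rule, and the dashed line is 5 CPM. ENSBTAT00000028731 is at 43.0 CPM or more, or at 0.487 CPM or less, in all 18 libraries used by the rule.

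ENSBTAT00000019800 and ENSBTAT00000034283 were the other pattern, on in most heifers and off in a few. ENSBTAT00000019800 had 0 CPM in cyclic day 16 heifers 16 and 7 and 0.487 CPM in pregnant day 16 heifer 6. In the other 15 libraries it had from 5.90 CPM in cyclic day 16 heifer 3 to 46.9 CPM in pregnant day 16 heifer 1. ENSBTAT00000034283 had 0 CPM in the same 3 heifers and 0.984 CPM in cyclic day 16 heifer 3. In the other 14 libraries it had from 5.36 CPM in pregnant day 13 heifer 2 to 43.0 CPM in cyclic day 13 heifer 5. Their upper values reached down almost to the threshold, so their gaps were narrower than those of the first pair, 2.70 and 1.98 on the log2(CPM + 0.5) scale.

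ENSBTAT00000009152, chosen after its values were seen, had a wide gap higher up, from 2.38 to 14.7 CPM. It was on in 8 libraries, with 24.9 CPM in cyclic day 13 heifer 13, 31.8 and 28.0 CPM in cyclic day 16 heifers 16 and 17, and 24.3, 14.7 and 19.1 CPM in pregnant day 13 heifers 11, 14 and 9. It had 36.6 and 39.0 CPM in pregnant day 16 heifers 1 and 6. The other 10 libraries had from 0 to 2.38 CPM, so its lower level was not an absence in all of them. In the libraries not used by the rule it had 1.06 CPM in library 1 of heifer 12, 27.1 CPM in library 2 and 22.4 CPM in heifer 19.

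How often members lay between the thresholds was also counted in the libraries that the rule did not use. Of the 12 values of the 4 members in these 3 libraries, 0 lay between 1 and 5 CPM (exact Clopper-Pearson 95% interval up to 26.5%). ENSBTAT00000019800 and ENSBTAT00000034283, on in most heifers, were on in all 3, so ENSBTAT00000028731 and ENSBTAT00000017749 alone gave both states there. For the 17 members with 1 to 5 libraries between, 20 of 51 values, or 39.2%, lay there (25.8% to 53.9%). For the 27 members with 6 or more it was 53 of 81 values, or 65.4% (54.0% to 75.7%). Values of 1 library are not independent, and library 2 and heifer 19 are alike, so these intervals are too narrow. Over all 48 members 50.7% of the values in these libraries lay between the thresholds (42.2% to 59.1%). It was 33.4% in the libraries that chose the members, where high and low values had been required. Those were of 4 groups, whereas these 3 are all of pregnant day 16. Between the thresholds were 26, 20 and 27 members in library 1, library 2 and heifer 19. In pregnant day 16 heifers 1, 4 and 6 it was 17, 15 and 11. The cause of the difference was not tested.

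Transcripts that switched together were sought among the 1128 pairs of members. A pair was counted when it was in opposite states in no library, both on in at least 3 and both off in at least 3. This held for 20 pairs, or 1.77%. Since 3 libraries in each state are enough, single heifers weigh on the count: it fell to 10 if cyclic day 13 heifer 10, cyclic day 16 heifer 17 or pregnant day 16 heifer 6 was left out. Leaving out cyclic day 16 heifer 7 gave 11 pairs, and leaving out heifer 16 of that group gave 13. They joined 27 members into 10 groups, 1 of 6 members, 3 of 3 and 6 of 2, and left 21 members in no group. In 12 of the 20 pairs, the ratio of the 2 transcripts varied by less than 1.5 times among the libraries with both on. Transcripts that share an exon or a similar sequence can share reads, and whether the members of a pair do was not tested.

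**Figure D3:**
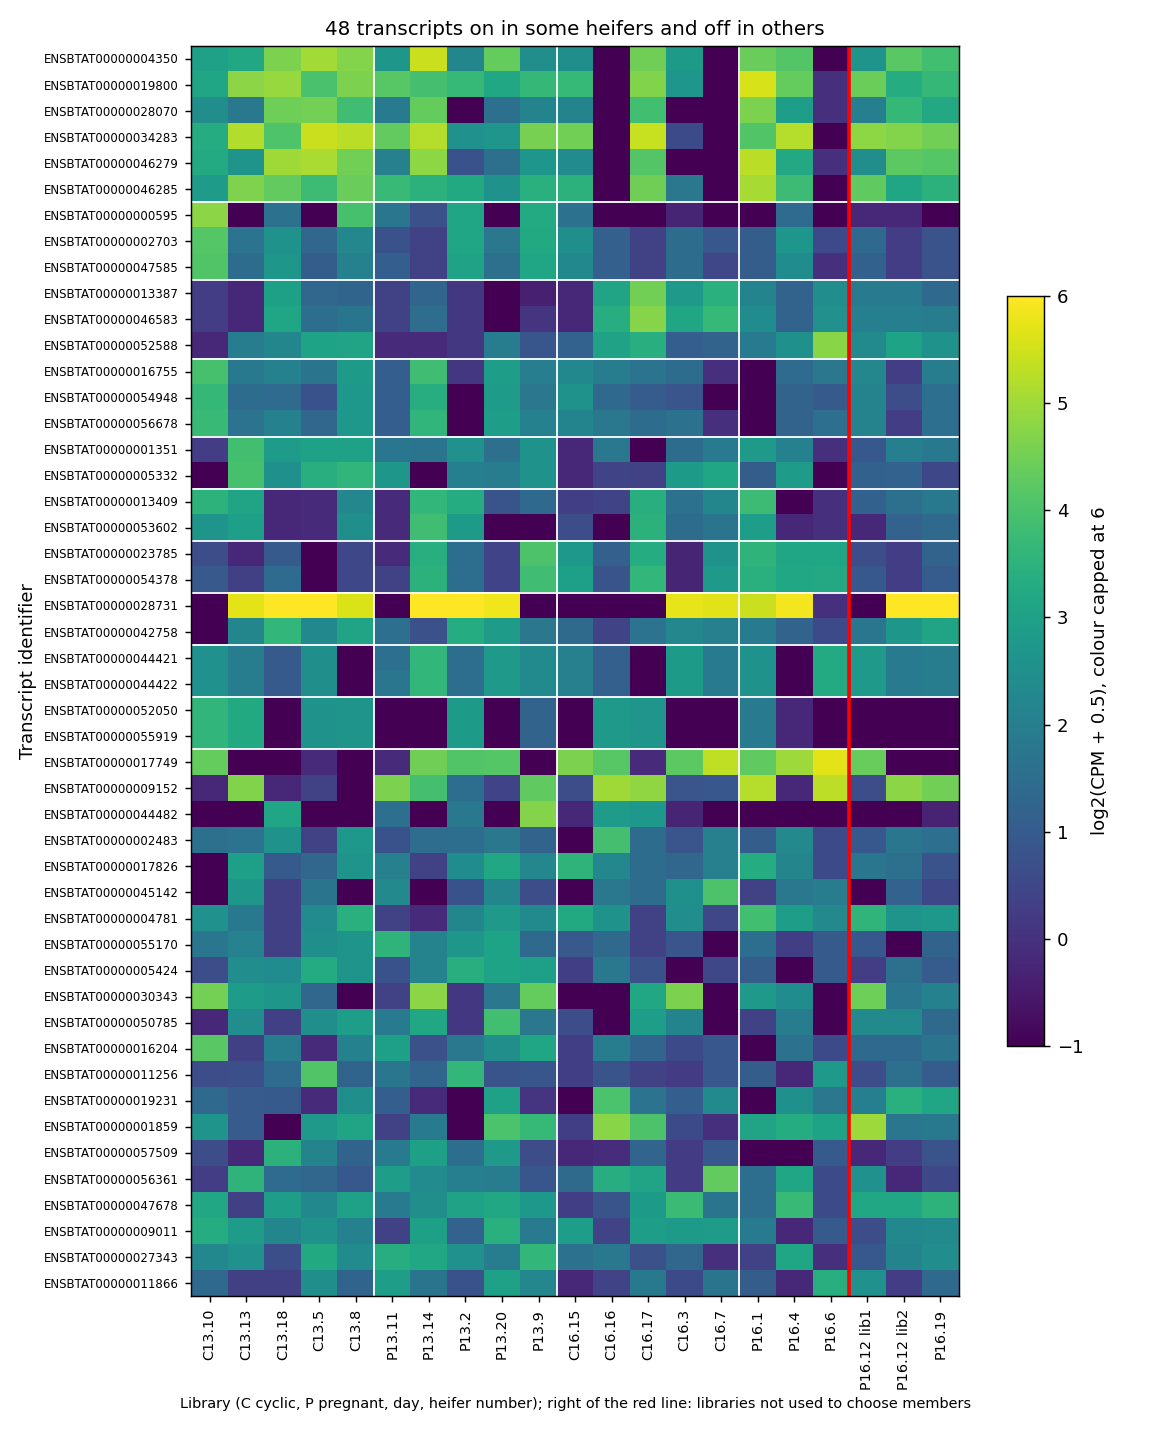
Level of the 48 members (rows) in the 21 libraries (columns, C cyclic, P pregnant, then day and heifer), as log2(CPM + 0.5) with the colour capped at 6. White lines bound the 10 groups that switched together and the groups of heifers, and the 3 columns right of the red line were not used by the rule. The top 6 rows are all dark in cyclic day 16 heifers 16 and 7 and pregnant day 16 heifer 6. Only some of them are dark in cyclic day 16 heifer 3 and pregnant day 13 heifer 2. The dark cells of most rows below the last group do not line up, and rows were ordered by group, so this contrast follows from the order.

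The largest group had 6 members. It held ENSBTAT00000019800, ENSBTAT00000034283, ENSBTAT00000004350, ENSBTAT00000046279, ENSBTAT00000046285 and ENSBTAT00000028070. Their counts summed to 0 in cyclic day 16 heifer 16, 0 in cyclic day 16 heifer 7 and 3 in pregnant day 16 heifer 6. The sum was 50 in cyclic day 16 heifer 3, 54 in pregnant day 13 heifer 2 and from 108 to 408 in the other 13 libraries. All 6 were on in 7 libraries and all 6 were off in 3. The group rests on each of these 3 heifers: without any 1 of them ENSBTAT00000019800, ENSBTAT00000004350 and ENSBTAT00000046285 were off in too few libraries to be members, and 3 of the 6 were left. The 3 heifers with all 6 off were all at day 16, but cyclic heifers 15 and 17 and pregnant heifers 1 and 4 at day 16 had sums of 163, 369, 226 and 278. In the libraries not used by the rule the sums were 231, 256 and 278, and none of the 18 values was off.

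**Figure D4:**
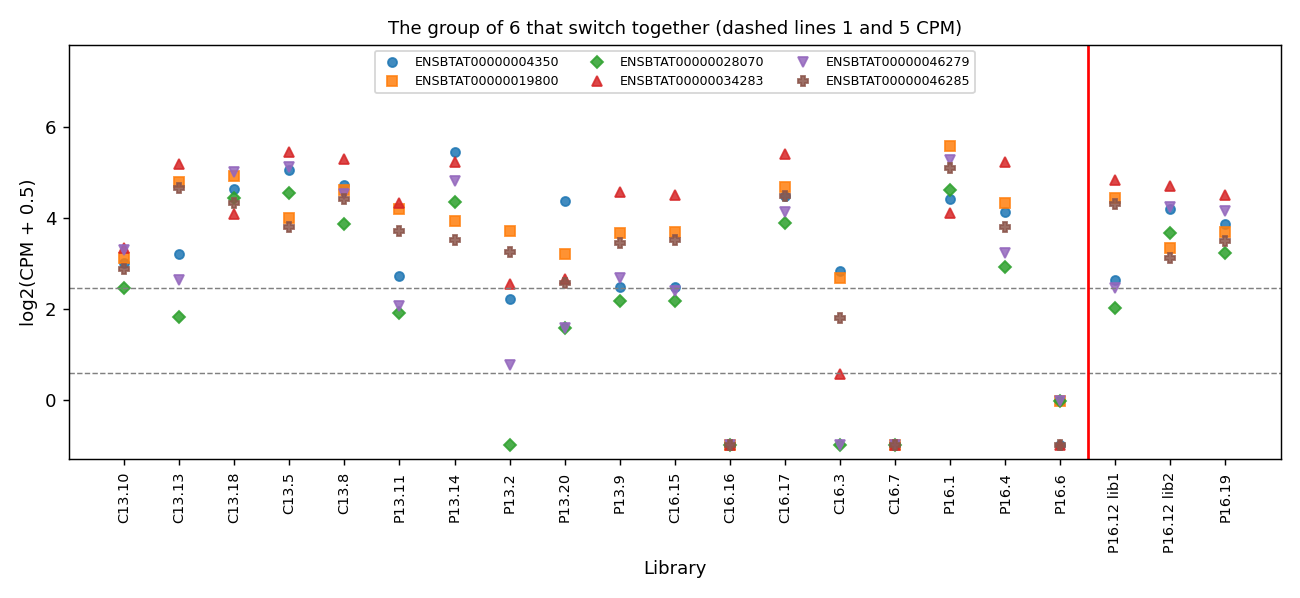
The 6 transcripts that switched together, as log2(CPM + 0.5) (vertical axis) in each library, with dashed lines at 1 and 5 CPM and the libraries not used by the rule to the right of the red line. All 6 lie at the bottom in cyclic day 16 heifers 16 and 7 and pregnant day 16 heifer 6, and they part from each other in cyclic day 16 heifer 3 and pregnant day 13 heifer 2.

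Within this group the members did not keep 1 common ratio. ENSBTAT00000046285 was 0.619 to 0.915 times ENSBTAT00000019800 in the libraries with both over 5 CPM, and ENSBTAT00000046279 was 1.19 to 1.60 times ENSBTAT00000028070. Between these subsets the ratio was wide, with ENSBTAT00000046285 at 0.394 to 4.33 times ENSBTAT00000046279. The subsets separated in 2 heifers, less cleanly in cyclic day 16 heifer 3. That heifer had 5.90 CPM of ENSBTAT00000019800 and 2.95 CPM of ENSBTAT00000046285, the latter between the thresholds. It had 0 CPM of both ENSBTAT00000028070 and ENSBTAT00000046279. Of the members in neither subset, ENSBTAT00000004350 had 6.56 CPM there and ENSBTAT00000034283 had 0.984 CPM, which is off. Pregnant day 13 heifer 2 had 12.5 CPM of ENSBTAT00000019800 and 8.94 CPM of ENSBTAT00000046285, but 0 CPM of ENSBTAT00000028070 and 1.19 CPM of ENSBTAT00000046279. Of the 15 pairs in the group, 7 met the rule for switching together, and the others were linked through other members.

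Members of the groups of 3 lay between the thresholds in 5 to 11 libraries, with 5 in ENSBTAT00000000595 and ENSBTAT00000046583. ENSBTAT00000016755, ENSBTAT00000056678 and ENSBTAT00000054948 met the rule in all 3 of their pairs. They were highest in cyclic day 13 heifer 10, at 15, 12.9 and 12.1 CPM, and in pregnant day 13 heifer 14, at 14, 11.6 and 9.70 CPM. All 3 were off in cyclic day 16 heifer 7, pregnant day 13 heifer 2 and pregnant day 16 heifer 1, yet 10 or 11 of the 18 libraries lay between the thresholds for each of them. Their ratios in libraries with both on stayed within 0.694 and 1.2.

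ENSBTAT00000000595, ENSBTAT00000002703 and ENSBTAT00000047585 were all on in cyclic day 13 heifer 10 and pregnant day 13 heifers 2 and 9. ENSBTAT00000000595 had 26.8, 8.34 and 9.30 CPM there and 15 CPM in cyclic day 13 heifer 8, with 0 counts in 8 of the 18 libraries. ENSBTAT00000002703 and ENSBTAT00000047585 had at least 1 count in each of the 18 libraries and 17.1 and 16.8 CPM in cyclic day 13 heifer 10. The second was 0.912 to 1.07 times the first where both were on. ENSBTAT00000000595 was thus absent from the reads of heifers in which these 2 were counted, and in cyclic day 13 heifer 8, where it was on, they were between the thresholds.

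ENSBTAT00000046583 and ENSBTAT00000013387 were highest in cyclic day 16 heifer 17, at 26.1 and 22.2 CPM, followed by cyclic day 16 heifer 7 at 12.3 and 10.47 CPM. ENSBTAT00000052588 was linked to ENSBTAT00000046583 by 3 libraries with both on and 3 with both off, but its highest library was pregnant day 16 heifer 6, at 26.3 CPM. ENSBTAT00000046583 had 5.36 CPM there. The ratio of these 2 ran from 0.382 to 4.91, so their link was one of thresholds and not of levels.

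Of the 6 groups of 2, some had the same counts or almost so. ENSBTAT00000052050 and ENSBTAT00000055919 had identical counts in all 21 libraries, and ENSBTAT00000044421 and ENSBTAT00000044422 differed by 1 count in 1 library. Each of these pairs thus gives 1 set of values and not 2, and whether its members share reads was not tested. ENSBTAT00000052050 had 5.52 to 11.8 CPM in the 7 libraries with it on and 0 counts in 8. ENSBTAT00000023785 and ENSBTAT00000054378, also named after their values were seen, were both on in 8 libraries and both off in 6, with a ratio of 0.883 to 1.24. They were highest in pregnant day 13 heifer 9, at 15.9 and 14.1 CPM, and on in all 3 pregnant day 16 heifers used by the rule, at 8.16 to 11.1 CPM. In the libraries not used by the rule, all of pregnant day 16, neither was on, at 0.713 to 1.84 CPM. ENSBTAT00000028731 was paired with ENSBTAT00000042758 at 4 libraries with both on and 3 with both off. ENSBTAT00000042758 lay between the thresholds in 11 libraries, so that pair too rests on few heifers.

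The libraries that had not chosen the pairs say little about switching. Both members of a pair were on or off in such a library in 28 cases from 14 of the 20 pairs, and in 28 of 28 they were in the same state. The other 6 pairs gave no case. Of the 28 cases, 18 came from the group of 6 and were all on, so none of them shows a switch. The transcripts of this group were on in 14 or 15 of the 18 libraries, except ENSBTAT00000046279 in 10 and ENSBTAT00000028070 in 7. Another 4 came from the 2 pairs with the same counts or nearly so, whose agreement follows from those counts. The remaining 6 cases came from 5 pairs, 2 with both on and 4 with both off. Over all other pairs of members the same state was found in 375 of 791 cases, or 47.4%, but those pairs were not matched for how often their members are on. Cases that share a transcript or a library are not independent.

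Transcripts in opposite states were fewer. In 4 pairs the members were never in the same state, each member being on with the other off in at least 3 libraries, and all 4 contained ENSBTAT00000055170. Its partners were ENSBTAT00000013387, ENSBTAT00000046583, ENSBTAT00000023785 and ENSBTAT00000054378. The first 2 belong to the group of 3 that also holds ENSBTAT00000052588, which was not a partner, and the last 2 are a group of 2. These pairs rested on 6 or 7 libraries, and ENSBTAT00000055170 lay between the thresholds in 9 of the 18.

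Members without a partner differed in the heifers that carried them. ENSBTAT00000044482, named after its values were seen, was off in 12 libraries, 10 of them with 0 counts. It was on in cyclic day 13 heifer 18 at 8.20 CPM, cyclic day 16 heifers 16 and 17 at 6.78 and 6.14 CPM and pregnant day 13 heifer 9 at 25.5 CPM. ENSBTAT00000001859, also named after its values were seen, was on in 10 libraries and highest in cyclic day 16 heifer 16 at 26.7 CPM, and had 31.2 CPM in library 1 of heifer 12 against 2.85 CPM in library 2 and 3.07 CPM in heifer 19. At the edge of the rule, ENSBTAT00000005424 and ENSBTAT00000011866 were taken with maxima of 10.1 and 10.2 CPM. ENSBTAT00000045193 and ENSBTAT00000014193 were not, with maxima of 9.78 and 9.75 CPM, and 48 transcripts missed the list only by their maximum.

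Each heifer had its own mixture of states. The number of the 48 members on ran from 10 in cyclic day 16 heifer 7 to 27 in cyclic day 13 heifer 8, and the number off from 6 in pregnant day 13 heifer 9 to 26 in pregnant day 16 heifer 6. By group, 19 to 27 members were on in cyclic day 13, 11 to 24 in pregnant day 13, 10 to 23 in cyclic day 16 and 11 to 20 in the 3 pregnant day 16 heifers. The groups overlapped. At least 1 heifer of every group was on for 22 of the members, at least 1 of every group was off for 12, and both were true of 6. Across the 18 libraries no relation of the number on to the total count was found (Pearson r = 0.02, permutation p = 0.925, adjusted p = 0.925, and Spearman rho = 0.08, permutation p = 0.734, adjusted p = 0.734). The r was 0.04 without the 2 libraries farthest from the median total. For the number between the thresholds, r was 0.26 (permutation p = 0.311, adjusted p = 0.622), rho was 0.15 (permutation p = 0.553, adjusted p = 0.734), and r was 0.07 without those 2 libraries. These libraries also chose the members, and 18 values can miss a relation, so none is excluded. The number off was not tested against the total count. It was 6 in the deepest library and 11 in the shallowest, against a median of 12.

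The rule had removed members whose groups did not overlap, so the tests of pregnancy and day are a description and nothing is read from their counts. All 48 members passed the filter on low counts and were fitted with 15154 transcripts in edgeR over the 18 libraries. For pregnancy at day 13, 0 members and 0% of all transcripts passed an adjusted p under 0.05 in edgeR. An unadjusted edgeR p under 0.05 was found in 3 members, or 6.25% of them, against 6.33% of all. For pregnancy at day 16, 0 members and 0.99% of all passed (0.957% higher and 0.033% lower in pregnant heifers). An unadjusted edgeR p under 0.05 was found in 1 member, or 2.08%, against 8.37% of all. DESeq2 also called 0 members in both, beside 2 of 15154 transcripts at day 13 and 179 at day 16. For day in cyclic heifers, 0 members passed in edgeR against 1.59% of all (0.488% higher and 1.1% lower at day 16). DESeq2 called 1, ENSBTAT00000005424, as lower at day 16, beside 428 of 15154 transcripts in either direction. In edgeR, 14 members, or 29.2% of them, had an unadjusted p under 0.05 against 14.7% of all. The median log2 fold change for that comparison was -0.76 over the members and 0.00 over all transcripts.

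For day in pregnant heifers 1 member, or 2.08%, passed, against 3.31% of all transcripts (1.88% higher and 1.43% lower at day 16). In edgeR, 5 members, or 10.4%, had an unadjusted p under 0.05 against 17.1% of all. The member that passed was ENSBTAT00000052588. It had 0.405, 0.388, 0.596, 3.33 and 1.33 CPM in pregnant day 13 heifers 11, 14, 2, 20 and 9, and 3.18, 5.19 and 26.3 CPM in pregnant day 16 heifers 1, 4 and 6. The groups met at 3.33 and 3.18 CPM, which kept it on the list. Its log2 fold change was 3.27 (SE 0.85, edgeR adjusted p = 0.0401, 5 and 3 heifers), and the adjusted p ran from 0.00483 to 0.453 over 24 alternatives, 17 of which called it. Without pregnant day 16 heifer 6, its highest library, the log2 fold change was 1.79 and the edgeR adjusted p was 0.453. It also missed the threshold without pregnant day 13 heifer 11, 14, 2 or 9 (edgeR adjusted p from 0.0740 to 0.0921) and, by a small margin, when cyclic day 13 heifer 13 was left out (edgeR adjusted p = 0.05002). It was 4.61 and 7.85 CPM in libraries 1 and 2 of heifer 12 and 5.52 CPM in heifer 19. With 20 heifers and the libraries of heifer 12 summed, 42 members were tested and 3 were called, beside 688 of 14807 transcripts. ENSBTAT00000052588 was called as higher, and ENSBTAT00000005424 and ENSBTAT00000055170 as lower at day 16.

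The deposited files carry 1 of 4 codes, lettered A to D here, whose meaning the labels do not state. In the 18 libraries A and B were on 5 each, C on 7 and D on 1, cyclic day 16 heifer 7. In a model with group and code, 0 members and 0% of all transcripts passed for code (edgeR, smallest adjusted p among members 1.00), 3 members, or 6.25%, had an unadjusted p under 0.05 against 3.11% of all, and DESeq2 called 0 members and 8 transcripts. ENSBTAT00000028731 was on in 2 of 5 libraries of code A, 5 of 5 of B, 3 of 7 of C and 1 of 1 of D. ENSBTAT00000017749 was on in 4 of 5, 2 of 5, 4 of 7 and 1 of 1. The unadjusted edgeR p for code was 0.765 for ENSBTAT00000028731 and 0.588 for ENSBTAT00000017749. Of the 48 members, 13 were both on and off within each of codes A, B and C.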

How the data were processed

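The authors deposited raw read counts per Ensembl bovine transcript, 1 file for each of 21 libraries from 20 heifers. Per the labels' protocols, the libraries were of the Illumina single-read kind. The submitters' processing notes name CASAVA, without its version or what it did. Build, annotation, aligner, counter and strand setting: not given in the sources used here. Groups and heifer numbers came from the labels. Heifers are the replicates.

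CPM used each file's total. The members and lists were chosen with earlier results of these data known. The transcripts named were the 3 with the highest maximum in each of the 4 largest groups that switched together, those with no library between 1 and 5 CPM (at most 6, of which 4 existed), the 2 members just above the 10 CPM maximum and the 2 transcripts just under it, and at most 2 called members per direction and comparison. The other transcripts named, including the further members of the group of 6, the groups of 2 and ENSBTAT00000055170, were chosen after their values were seen. The lists of cell type markers needed gene names and were not tested.

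Tests used edgeR 4.0.16 in R 4.3.3 (filterByExpr at 10 counts per library and 15 in total, TMM, robust quasi-likelihood F test, 4 group means, Benjamini-Hochberg threshold 0.05). Standard errors were the fold change divided by the square root of F. Correlations used 100000 permutations (scipy 1.17.1, two-sided). DESeq2 1.42.0, other scaling, filters, thresholds and libraries were alternatives. The scripts were tested on simulated data. Intervals treat each value of a member in a library as an independent draw, and floors cover counting error only.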

Additional observations from a re-analysis of the deposited data

Results flagged for a closer look

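A single heifer standing apart from the other 4 was looked for in 69 sets of 5 values. The sets were the CPM of the transcripts named by rule and of ENSBTAT00000009152, ENSBTAT00000044482 and ENSBTAT00000001859, with the numbers of members on and off. It was seen 9 times. The cut used gives it in about 1 of 20 sets of normally distributed values. That rate need not hold for these values, so the 9 are not compared with it. Transcripts that are on or off give such values by their nature, and related transcripts are not separate findings.

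Cyclic day 13 heifer 10 was far above the other 4 heifers for 3 transcripts, with 17.1 CPM of ENSBTAT00000002703 (others up to 5.59), 16.8 CPM of ENSBTAT00000047585 (others up to 5.96) and 19.6 CPM of ENSBTAT00000017749 (others up to 0.394). Cyclic day 13 heifer 18 had 7.45 CPM of ENSBTAT00000013387 (others up to 1.97) and 8.20 CPM of ENSBTAT00000044482 (others 0). Cyclic day 13 heifer 13 had 24.9 CPM of ENSBTAT00000009152 (others up to 0.789). Pregnant day 13 heifer 9 had 25.5 CPM of ENSBTAT00000044482 (others up to 2.98). Cyclic day 16 heifer 15 had 2.54 CPM of ENSBTAT00000000595 (others up to 0.328). Cyclic day 16 heifer 17 had 23 members on, against 10 to 13 in the other 4 of its group.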

How the results depend on the processing

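With 1 heifer left out, members numbered 32 (without pregnant day 16 heifer 6) to 46, those with no library between 3 to 5, pairs that switched together 10 (without cyclic day 13 heifer 10) to 24, and members in groups of at least 3 from 6 to 16. The last was 6 without cyclic day 13 heifer 10, cyclic day 16 heifer 17 or 7, pregnant day 13 heifer 2 or pregnant day 16 heifer 6, and 9 without cyclic day 16 heifer 16, pregnant day 13 heifer 14 or pregnant day 16 heifer 1. With thresholds doubled there were 23 members, 11 of the 48 among them, and 2 with an empty middle. With thresholds halved, 6 members were in groups of at least 3. Without the condition on overlap, 35 pairs switched together and 28 members were in groups of at least 3. With overlap judged over 20 heifers, an alternative chosen after seeing the data, there were 50 members, all 48 included. Library 2 of heifer 12 alone had 41.7% of values between the thresholds.

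With 1 heifer left out, edgeR called 97 to 161 transcripts for pregnancy at day 16, 133 to 362 for day in cyclic and 156 to 538 for day in pregnant heifers, and 0 for pregnancy at day 13 and for code. The value was 97 without pregnant day 16 heifer 6 for the first. For day in cyclic heifers it was 133, 145, 153 and 362 without cyclic day 16 heifer 3, cyclic day 13 heifer 8, cyclic day 16 heifer 17 and cyclic day 13 heifer 5. For day in pregnant heifers it was 156 and 289 without pregnant day 16 heifers 6 and 1. Members called were 0 to 1 for day in cyclic (1 without cyclic day 13 heifer 10) and 0 to 2 for day in pregnant heifers (2 without pregnant day 16 heifer 4), and 0 in the other 3 comparisons. DESeq2 called 2 transcripts for pregnancy at day 13, 428 for day in cyclic heifers with 1 member, and 8 for code. With code as a term 84 were called for day in cyclic and 281 for day in pregnant heifers. For day in pregnant heifers, 0 members were called with no filter, beside 440 of 21383 transcripts. With 20 heifers 3 members were called, both with the libraries of heifer 12 summed and with library 1 alone. Beside them were 688 of 14807 and 587 of 14826 transcripts. The cause of these shifts was not tested. Of 96 values under alternatives other than leaving out a heifer, 81 held. They stayed within 1.5 times the main count, within its interval, or in the same direction. No paired analysis was possible because the labels number the heifers with no number shared between groups. Depth limits the reading of off, since 3 counts are 2.39 CPM in the shallowest library.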
